A study of Mus musculus with 14 samples.

Results

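Genes of extracellular proteolysis were followed in the brains of wild-type and cortistatin-deficient mice 48 h after a stroke. They were chosen by symbol from the 46904 genes of the expression table: 6 matrix metalloproteinases (Mmp2, Mmp3, Mmp9, Mmp12, Mmp14 and Mmp19), 3 ADAMTS proteases (Adamts1, Adamts4 and Adamts9) and 1 inhibitor (Timp2). All 10 were rows of the table. Cortistatin, the product of Cort, is a neuropeptide. Male mice on a C57BL/6J background, 12 weeks old, had one middle cerebral artery occluded for 20 min (MCAO) and both hemispheres were collected at 48 h. The 14 bulk brain RNA-seq libraries fell into 4 groups: 3 contralateral (CL) and 3 ischemic (MCAO) hemispheres of Cort+/+ mice, and 3 CL and 5 MCAO hemispheres of Cort-/- mice, which carry the deletion in every tissue. The contralateral hemisphere of an operated animal served as control, and the labels do not say which hemispheres came from one animal. The Cort+/+ MCAO libraries are replicates 2, 3 and 4, and per the study's methods only clearly grouped replicates entered a comparison where variability was large.

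Matrix metalloproteinases are zinc endopeptidases that cut collagens, laminins, fibronectin and junction proteins. Most are made as inactive precursors and are opened by other proteases such as plasmin or by one another, and tissue inhibitors of metalloproteinases (TIMPs) bind and block the active enzymes. ADAMTS proteases are secreted relatives that cut lecticans such as aggrecan, brevican and versican. In the brain these enzymes are known for acting on the vascular basement membrane and on the perineuronal nets that wrap neurons, and Mmp9 and Mmp3 are studied as agents of blood-brain barrier opening after stroke.

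Libraries held 25991115 to 43034549 reads, and the shallowest was Cort-/- MCAO replicate 3. Cort had 64 to 139 reads in each Cort+/+ library and 0 to 4 in each Cort-/- library, as the labels state. Summed levels of 4 neuron markers (1184 to 1744 RPKM) and of 5 oligodendrocyte markers (729 to 978 RPKM) were high in every library, as the label brain requires. RPKM divide reads by the length of the gene and the size of the library, so levels of different genes can be set side by side. Several libraries stood apart from their groups in Gfap, which encodes the intermediate filament of reactive astrocytes. Among CL libraries Cort+/+ replicate 1 (132 RPKM) and Cort-/- replicate 2 (110 RPKM) were above the other 4, which lay between 37.9 and 55.4 RPKM. Among MCAO libraries Cort+/+ replicate 4 (120 RPKM) and Cort-/- replicate 3 (149 RPKM) were lowest, where the other 6 lay between 207 and 361 RPKM. Fewer cells of a type and less RNA per cell cannot be told apart in such bulk samples.

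The first question was which of these genes differ between the ischemic and the contralateral hemisphere. Mmp12, which encodes the elastase of macrophages, was higher in MCAO than in CL hemispheres of both genotypes. Mmp3, which encodes stromelysin 1, was higher in MCAO than in CL hemispheres within Cort-/- mice and over both genotypes together. Mmp19, Adamts1, Mmp2, Mmp14 and Adamts9 lay higher on average without passing the test. Mmp9, Adamts4 and Timp2 differed by at most 0.13 on the log2 scale in either genotype. Of the 10 genes, 1 passed an adjusted p of 0.05 in Cort+/+ mice, where 0.0108% of all 46102 genes tested did (0.00868% of them higher in MCAO). Among Cort-/- hemispheres 2 passed, against 1.72% of all genes (1.34% higher). The contrast averaged over both genotypes called 2, against 3.43% of all genes (2.52% higher). All of these calls were for higher expression in MCAO. The median log2 difference of the 10 genes was 0.32 in Cort+/+ mice, 0.57 in Cort-/- mice and 0.42 averaged over both, and the median over all genes was 0 in each genotype. These shares and medians over all genes include many genes of low level, since 15063 reached a mean of 1 RPKM. With a mean of at least 0.5 RPKM, 2180 genes rather than 1579 were called in the averaged contrast.

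**Figure D1:**
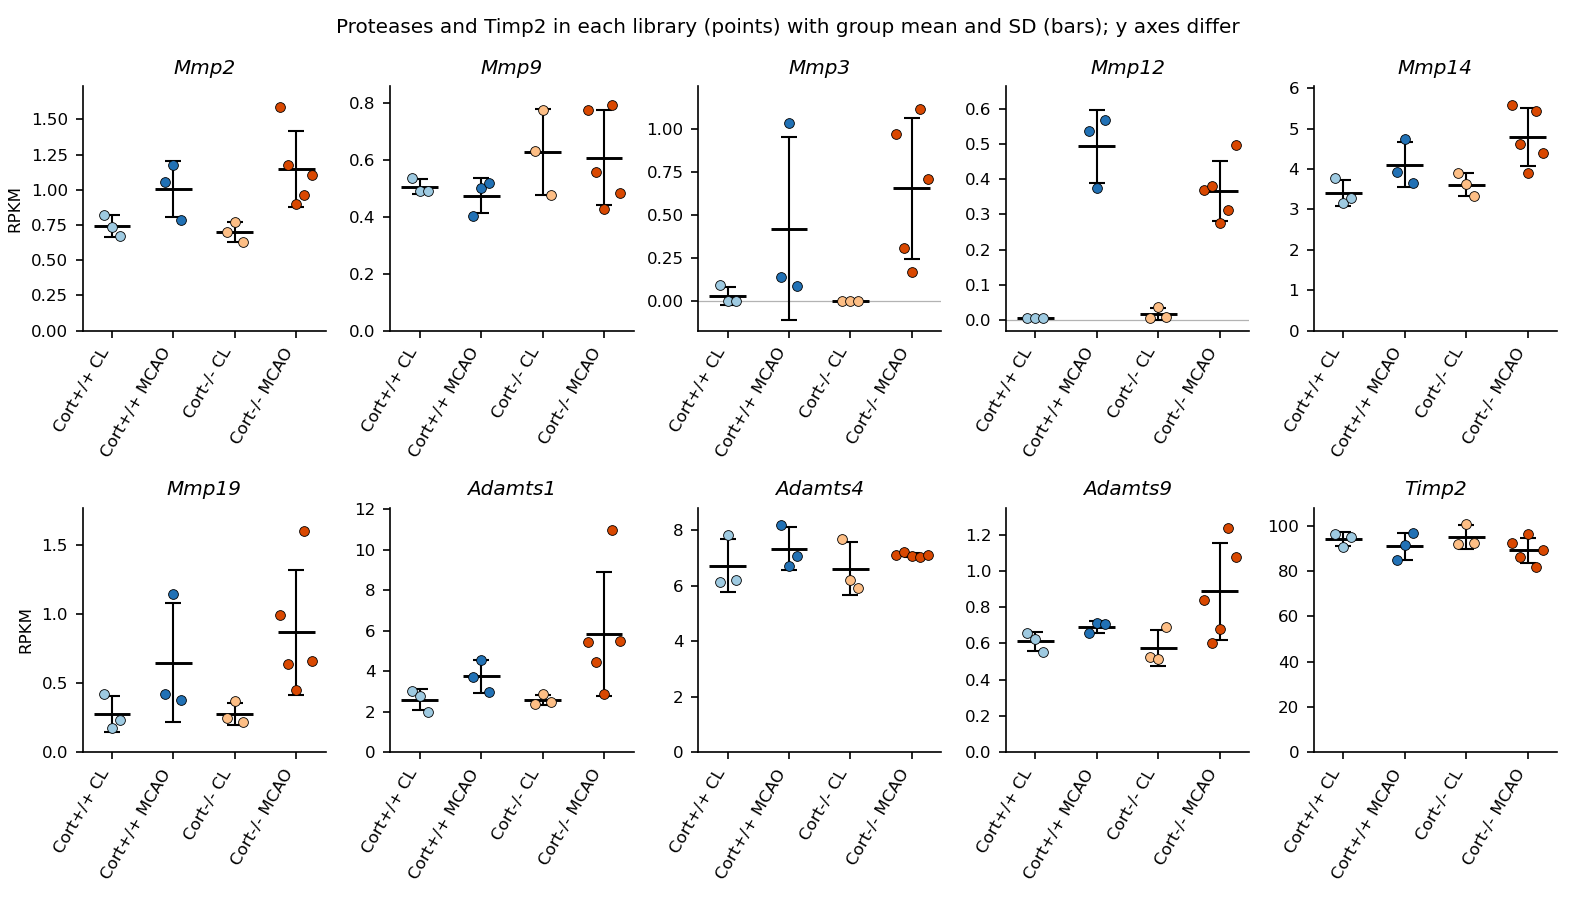
Expression (y axis, RPKM, a separate linear scale for each gene) of the 10 genes in each of the 14 libraries (points) by group (x axis), with the group mean and SD (horizontal line and bars). Every MCAO library lies above every CL library for Mmp12, Mmp3 is at 0 in 5 of 6 CL libraries, and the groups overlap for Mmp9, Adamts4 and Timp2.

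Mmp12 (protein coding, GRCm39 build, chromosome 9, plus strand, 7344381 to 7369499) starts 101441 bases before the start of Mmp3, which spans 7445822 to 7455975 on the same strand. Both belong to a cluster of 10 Mmp genes, from Mmp13 to Mmp7, within 427073 bases. Exons of Mmp12 overlap those of Mmp1b on the opposite strand, and Mmp1b was not analysed here. The library kit keeps strand, while the strand setting of the counting is not given in the sources used here. The promoters of these genes are shown because Mmp12 and Mmp3 were the called genes and because the AP-1 letters TGANTCA (a palindrome, hence searched on both strands at once) occur in them. The RefSeq promoters (build GRCm38.p6, 250 bases before to 50 after each start, plus strand) held entries for 6 of the 10 genes, with a second start for Mmp12. The letters were found in Mmp3 and in the second Mmp12 start, and in 7.81% of all 32851 promoters of this length. Of the other genes of the cluster with an entry, Mmp13, Mmp10 and Mmp1a (73 bases before its start) held them and Mmp8 and Mmp27 did not. The 120 bases before each start are given 5′ to 3′ with the AP-1 letters in capitals, and the first Mmp12 start has none.
Mmp3, chr9:7445702-7445821, letters from 46 bases before the start: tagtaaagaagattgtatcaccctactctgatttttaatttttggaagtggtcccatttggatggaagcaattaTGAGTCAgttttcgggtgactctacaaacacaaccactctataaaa
Mmp12, first start, chr9:7344277-7344396: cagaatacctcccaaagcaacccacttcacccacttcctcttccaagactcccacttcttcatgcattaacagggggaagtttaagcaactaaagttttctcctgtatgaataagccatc
Mmp12, second start, chr9:7347254-7347373, letters from 44 bases before the start: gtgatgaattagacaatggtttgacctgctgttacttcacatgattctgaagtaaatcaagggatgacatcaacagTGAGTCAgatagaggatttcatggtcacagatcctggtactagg
Mmp13, chr9:7272394-7272513, letters from 35 bases before the start: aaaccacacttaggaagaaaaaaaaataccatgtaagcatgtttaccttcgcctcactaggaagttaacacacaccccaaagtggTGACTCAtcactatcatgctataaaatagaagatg
Mmp10, chr9:7502222-7502341, letters from 63 bases before the start: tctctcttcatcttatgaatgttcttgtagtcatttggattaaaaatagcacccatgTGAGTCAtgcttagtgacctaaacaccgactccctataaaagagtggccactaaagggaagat
A match of letters is a description of the sequence and says nothing of which factor is bound. No entry was held for Mmp2, Mmp9, Mmp19 and Adamts4, and none of these letters for Mmp14, Adamts1, Adamts9 and Timp2.

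Mmp12 was close to absent from CL hemispheres and present in all MCAO hemispheres. In Cort+/+ mice it held 0.00692, 0.00726 and 0.00673 RPKM in CL replicates 1 to 3, which is 1 read in each, and 0.538, 0.375 and 0.568 RPKM in MCAO replicates 2 to 4, which is 77, 61 and 70 reads. Cort-/- CL replicates 1 to 3 held 0.00728, 0.0377 and 0.00775 RPKM (1, 5 and 1 reads). The 5 Cort-/- MCAO replicates held 0.369, 0.381, 0.276, 0.313 and 0.498 RPKM (64, 66, 29, 52 and 76 reads). The lowest MCAO library thus lay above the highest CL library across both genotypes, which 1.72% of all genes showed and no other of the 10 genes did. Cort-/- CL replicate 2, the CL library with the most Mmp12 reads, was also one of those with high Gfap. Per read, the rate was 69.6 times higher in MCAO than in CL libraries of Cort+/+ mice (95% exact interval 23.5 to 340.3, counting error only, from 208 and 3 reads). The rate in Cort-/- mice was 21.2 times higher (10.2 to 53.2, from 287 and 7 reads), and 49.6 times higher (13.6 to 411) without Cort-/- CL replicate 2, which held 5 of the 7 CL reads. On the scale of log2(RPKM + 0.1), which understates the change of such low genes, the difference was 2.46 ± 0.23 (SE) in Cort+/+ mice (limma adjusted p = 0.00169). It was 1.98 ± 0.20 (SE) in Cort-/- mice (limma adjusted p = 0.00304) and 2.22 ± 0.15 averaged over both (limma adjusted p = 4.75e-05). Mmp12 passed in each genotype in all 14 fits that left out 1 library. In Cort+/+ mice it missed the threshold when only the 6 libraries of that genotype were fitted (adjusted p = 0.0553).

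Mmp3 was listed at 0 in 5 of 6 CL libraries. The exception was Cort+/+ CL replicate 1, one of the CL libraries with high Gfap, with 6 reads (0.0918 RPKM). In Cort+/+ MCAO replicates 2 to 4 it held 0.139, 1.03 and 0.0897 RPKM (9, 76 and 5 reads), so that replicate 4 lay just below that CL library, replicate 2 just above it and replicate 3 far above it. In Cort-/- MCAO replicates 1 to 5 it held 0.970, 0.307, 0.168, 1.12 and 0.710 RPKM (76, 24, 8, 84 and 49 reads), all above the 3 Cort-/- CL libraries at 0. The mean in Cort-/- mice was at least 13.1-fold higher in MCAO than the level of 3 reads per CL library. In Cort+/+ mice the rate per read was 15.1 times higher (95% exact interval 6.66 to 42.1), with every CL read from CL replicate 1 and 76 of the 90 MCAO reads from MCAO replicate 3. Without MCAO replicate 3 that ratio was 3.77 (1.36 to 12.0), and without CL replicate 3 it was 9.87 (4.36 to 27.6). It was 20.3 (8.95 to 57.1) without MCAO replicate 2 and 20.0 (8.80 to 55.9) without MCAO replicate 4. Without CL replicate 1 no CL read was left, and the interval began at 15.9. The log2 difference was 2.70 ± 0.59 (SE) in Cort-/- mice (limma adjusted p = 0.0408) and 1.58 ± 0.67 (SE) in Cort+/+ mice (limma adjusted p = 0.576), where it was 0.78 without MCAO replicate 3. Averaged over both it was 2.14 ± 0.45 (limma adjusted p = 0.0190). The call in Cort-/- mice held in 5 of 14 fits without 1 library, with adjusted p from 0.0139 to 0.144. It was lost without any 1 of Cort-/- CL replicates 1, 2 and 3, Cort-/- MCAO replicates 1, 4 and 5, Cort+/+ CL replicates 2 and 3 and Cort+/+ MCAO replicate 2, and without both CL libraries of high Gfap (adjusted p = 0.124). The averaged call held in 13 of 14 and was lost without Cort+/+ CL replicate 3 (adjusted p = 0.0537).

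The gelatinases Mmp2 and Mmp9 cut denatured collagen and basement membrane collagen IV, and Mmp14 is the membrane-anchored protease that activates Mmp2 on the cell surface with Timp2 as its adaptor. Mmp2 (chromosome 8, 93553902 to 93580049) held 0.824, 0.733 and 0.670 RPKM in Cort+/+ CL and 1.06, 1.18 and 0.787 RPKM in Cort+/+ MCAO hemispheres. It held 0.697, 0.772 and 0.632 RPKM in Cort-/- CL and 1.59, 1.17, 0.897, 0.965 and 1.10 RPKM in Cort-/- MCAO hemispheres. All Cort-/- MCAO libraries were above all Cort-/- CL libraries, while Cort+/+ MCAO replicate 4 lay below Cort+/+ CL replicate 1. The averaged log2 difference of 0.50 ± 0.13 (SE) missed the threshold (limma adjusted p = 0.0576). Mmp14 (chromosome 14, 54668878 to 54682821) held 3.78, 3.16 and 3.29 RPKM in Cort+/+ CL and 3.92, 4.75 and 3.67 RPKM in Cort+/+ MCAO hemispheres. The Cort-/- hemispheres held 3.90, 3.62 and 3.33 RPKM in CL and 5.59, 4.61, 3.90, 5.45 and 4.41 RPKM in MCAO hemispheres. Groups overlapped in both genotypes, and the averaged log2 difference was 0.32 ± 0.09 (SE, limma adjusted p = 0.0777).

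Mmp9 (chromosome 2, 164780439 to 164797771) did not separate the hemispheres. It held 0.538, 0.492 and 0.490 RPKM in Cort+/+ CL and 0.403, 0.501 and 0.519 RPKM in Cort+/+ MCAO hemispheres. Values in Cort-/- mice were 0.630, 0.777 and 0.477 RPKM in CL and 0.774, 0.558, 0.429, 0.792 and 0.485 RPKM in MCAO hemispheres. The averaged log2 difference was -0.07 with a 95% interval from -0.40 to 0.26 (limma adjusted p = 0.914). Each library held 36 to 107 reads of Mmp9.

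Mmp19 (chromosome 10, 128626773 to 128636695), a basement membrane protease, had a wide spread within both MCAO groups. It held 0.423, 0.176 and 0.233 RPKM in Cort+/+ CL and 0.419, 1.14 and 0.374 RPKM in Cort+/+ MCAO hemispheres. For Cort-/- mice the values were 0.244, 0.366 and 0.215 RPKM in CL and 0.991, 0.633, 0.449, 1.60 and 0.657 RPKM in MCAO hemispheres. Cort-/- groups did not overlap, whereas 2 of 3 Cort+/+ MCAO libraries lay below Cort+/+ CL replicate 1. The averaged log2 difference was 1.08 ± 0.29 (SE, limma adjusted p = 0.0678). Exons of Mmp19 overlap those of Tmem198b on the opposite strand. Exons of Mmp19, Mmp2, Mmp14 and Adamts9 also overlap those of long noncoding genes on the opposite strand.

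Among the ADAMTS proteases, Adamts1 and Adamts4 cut aggrecan and brevican and Adamts9 cuts versican. Adamts1 (chromosome 16, 85590579 to 85600009, minus strand) held 3.04, 2.75 and 2.00 RPKM in Cort+/+ CL and 3.72, 4.54 and 2.95 RPKM in Cort+/+ MCAO hemispheres. Values in Cort-/- mice were 2.38, 2.88 and 2.45 RPKM in CL and 5.43, 4.44, 2.89, 10.9 and 5.48 RPKM in MCAO hemispheres. Replicate 4 held 2233 reads and stood highest, and replicate 3 lay just above the Cort-/- CL libraries. The log2 difference was 1.02 ± 0.31 (SE) in Cort-/- mice (limma adjusted p = 0.133) and 0.51 ± 0.35 (SE) in Cort+/+ mice (limma adjusted p = 0.854). Adamts9 (chromosome 6, 92749680 to 92920520, minus strand) held 0.555 to 0.657 RPKM in Cort+/+ CL, 0.656 to 0.712 RPKM in Cort+/+ MCAO and 0.514 to 0.690 RPKM in Cort-/- CL hemispheres. The Cort-/- MCAO replicates held 0.840, 0.603, 0.680, 1.24 and 1.08 RPKM, and the averaged log2 difference was 0.33 ± 0.15 (SE, limma adjusted p = 0.312). Adamts4 (chromosome 1, 171077986 to 171089841) held 5.92 to 7.82 RPKM over the 6 CL libraries and 6.73 to 8.20 RPKM over the 8 MCAO libraries. Its 5 Cort-/- MCAO libraries lay between 7.03 and 7.22 RPKM, a spread of 0.0702 RPKM (SD). The averaged log2 difference was 0.12 with a 95% interval from -0.04 to 0.28 (limma adjusted p = 0.499).

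Timp2 (chromosome 11, 118191887 to 118246566, minus strand), which blocks most metalloproteinases and at low level helps Mmp14 to activate Mmp2, was the most abundant of the 10 genes. It held 96.5, 90.7 and 95.1 RPKM in Cort+/+ CL and 84.7, 91.4 and 96.6 RPKM in Cort+/+ MCAO hemispheres. The Cort-/- hemispheres held 91.8, 101 and 92.3 RPKM in CL and 92.3, 86.2, 96.3, 81.6 and 89.2 RPKM in MCAO hemispheres. The groups overlapped in both genotypes. The averaged log2 difference was -0.07 with a 95% interval from -0.17 to 0.02 (limma adjusted p = 0.512). Exons of Timp2 overlap those of Cep295nl on the same strand, so its reads are less certain.

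In CL hemispheres the levels ran, from the top, Timp2 (94.6 ± 3.81 RPKM, SD, n = 6), Adamts4 (6.66 ± 0.857), Mmp14 (3.51 ± 0.298), Adamts1 (2.58 ± 0.379), Mmp2 (0.721 ± 0.0697), Adamts9 (0.594 ± 0.0731), Mmp9 (0.567 ± 0.117), Mmp19 (0.276 ± 0.0963), Mmp3 (0.0153 ± 0.0375) and Mmp12 (0.0123 ± 0.0125). Ranges of neighbours overlapped for Mmp2 with Adamts9, Adamts9 with Mmp9, and Mmp3 with Mmp12. In MCAO hemispheres (n = 8) Timp2 (89.8 ± 5.38 RPKM) and Adamts4 (7.19 ± 0.430) were again highest on average. Adamts1 (5.05 ± 2.58 RPKM) and Mmp14 (4.54 ± 0.712) followed, and the range of Adamts1 overlapped those of both Adamts4 and Mmp14. Adamts1 was above Mmp14 in 2 of the 8 libraries and above Adamts4 in 1, Cort-/- replicate 4, without which the means of Adamts1 and Mmp14 were 4.21 and 4.41 RPKM. Below them, Mmp2 (1.09 ± 0.242), Adamts9 (0.814 ± 0.227), Mmp19 (0.783 ± 0.428), Mmp3 (0.567 ± 0.438), Mmp9 (0.558 ± 0.148) and Mmp12 (0.415 ± 0.107) formed a chain in which the ranges of every pair of neighbours overlapped.

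Groups that did not overlap were counted as well. In Cort-/- mice 5 of the 10 genes (Mmp2, Mmp3, Mmp12, Mmp19 and Adamts1) had every MCAO library above every CL library, where 4.85% of all genes did. In Cort+/+ mice 1 of 10 did (Mmp12), where 5.73% of all genes did. At an unadjusted p of 0.05, 7 of 10 were higher in MCAO in Cort-/- mice (6.66% of all genes), 2 of 10 in Cort+/+ mice (4.88% of all genes) and 7 of 10 averaged over both (8.02% of all genes). Cort-/- mice had 5 MCAO libraries and Cort+/+ mice 3, so these counts do not test a difference between genotypes.

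The next question was whether the genotypes differ. None of the 10 genes passed in the Cort-/- against Cort+/+ comparison of CL hemispheres, of MCAO hemispheres, or in the interaction of genotype and MCAO. Across all genes 0.0152%, 0.0174% and 0.00217% were called in these limma fits, and at an unadjusted p of 0.05 the count was again 0 of 10 in each, against 3.91%, 3.82% and 3.31% of all genes. In MCAO hemispheres the values of both genotypes overlapped for all 10 genes, whereas 0.861% of all genes were higher and 1.56% lower in Cort-/- mice without overlap. The log2 difference, Cort-/- minus Cort+/+, was 0.80 for Mmp3 (95% interval -0.48 to 2.09), 0.52 for Adamts1 (-0.15 to 1.18), 0.41 for Mmp19 (-0.44 to 1.25) and -0.35 for Mmp12 (-0.78 to 0.09). Leaving out 1 library moved these differences to between 0.32 and 1.61 for Mmp3, 0.26 and 0.73 for Adamts1, 0.15 and 0.85 for Mmp19 and -0.50 and -0.25 for Mmp12. The lowest values were without Cort+/+ MCAO replicate 4 (Mmp3 and Mmp19) or Cort-/- MCAO replicate 4 (Adamts1), the highest without Cort+/+ MCAO replicate 3 (Mmp3 and Mmp19) or Cort-/- MCAO replicate 3 (Adamts1). For Timp2 (-0.03, from -0.16 to 0.10) and Adamts4 (-0.04, from -0.25 to 0.17) the intervals were narrower. In CL hemispheres Mmp12 alone had groups that did not overlap, which 3.9% of all genes showed in that direction. All 3 Cort+/+ and 2 of the 3 Cort-/- CL libraries held 1 read each, so that library size alone separates these values and no difference is read from them. The interaction, the MCAO difference in Cort-/- minus that in Cort+/+ mice, was 1.12 for Mmp3 (95% interval -0.81 to 3.05), -0.47 for Mmp12 (-1.13 to 0.18) and 0.51 for Adamts1 (-0.49 to 1.52). A larger response in one genotype was therefore not detectable at this number of libraries. The intervals for Mmp3, Mmp19 and Adamts1 still hold differences of more than 1 on the log2 scale. That for Mmp12 reaches -1.13, toward a smaller response in Cort-/- mice.

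**Figure D2:**
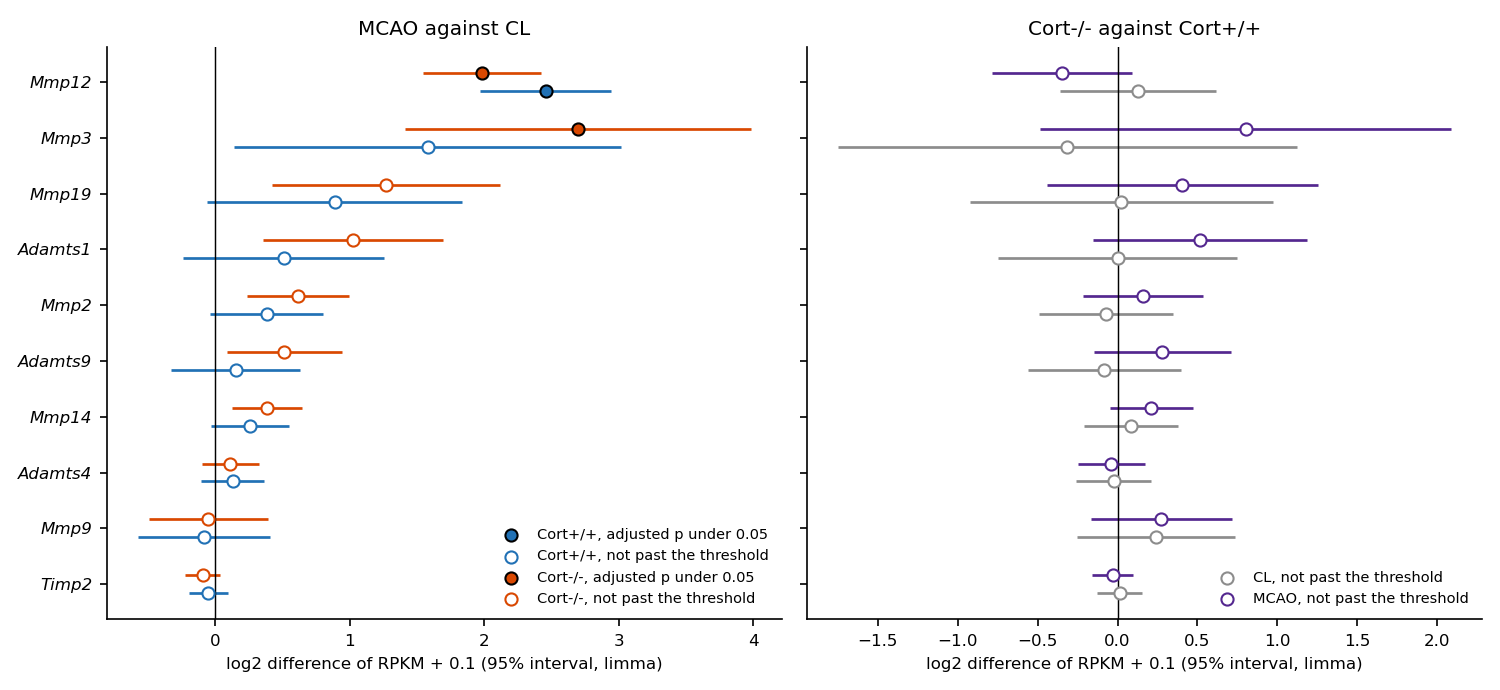
Log2 difference of RPKM + 0.1 (x axis) for the 10 genes (y axis) with 95% intervals from limma, for MCAO against CL in each genotype (left) and Cort-/- against Cort+/+ in each hemisphere (right). Filled points passed an adjusted p of 0.05, which holds for Mmp12 in both genotypes and Mmp3 in Cort-/- mice and for no gene on the right.

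The MCAO libraries differed among themselves, and the genes ordered them differently. From the highest to the lowest, Mmp3 and Mmp19 placed the 8 MCAO libraries in one and the same order: Cort-/- replicate 4, Cort+/+ replicate 3, Cort-/- replicates 1, 5, 2 and 3, and Cort+/+ replicates 2 and 4. Mmp12 ran otherwise. Cort+/+ replicate 4 was lowest for Mmp2, Mmp3, Mmp14 and Mmp19, highest for Mmp12 and Timp2, and lowest for Gfap (120 RPKM) and Timp1 (1.64 RPKM). Cort-/- replicate 4 was highest for 5 of the 10 genes (Mmp3, Mmp9, Mmp19, Adamts1 and Adamts9) and for Timp1 (17.7 RPKM) and Lcn2 (30.8 RPKM), and second lowest for Mmp12. In CL hemispheres Cort+/+ replicate 1, with the highest Gfap, was highest for 4 of the 10 genes (Mmp2, Mmp3, Mmp19 and Adamts1). Cort-/- CL replicate 2 was highest for Mmp9, Mmp12 and Timp2. How far Gfap or the extent of injury enters these orders was not tested.

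**Figure D3:**
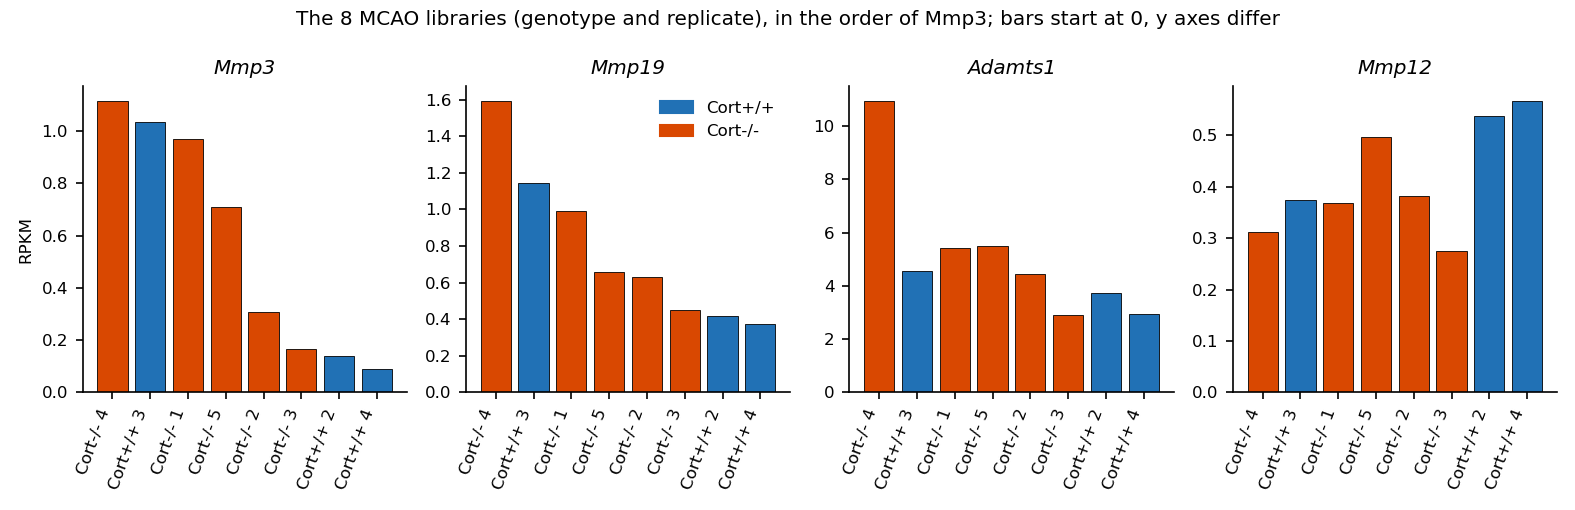
Expression (y axis, RPKM, bars from 0, separate scales) of Mmp3, Mmp19, Adamts1 and Mmp12 in the 8 MCAO libraries (x axis, genotype and replicate), ordered by Mmp3. Mmp19 falls in the same order as Mmp3, and Adamts1 is highest in the same library. Mmp12 is highest in the library where Mmp3 is lowest, and lowest in the library that ranks 6 of 8 for Mmp3.

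Genes whose pattern over the 14 libraries was closest to each of the 10 were found by the Pearson correlation of log2(RPKM + 0.1) among the 15063 genes whose mean over libraries reached 1 RPKM. The points share library and hemisphere, so r is given as a description. For Mmp12 these were Clcf1, Cks2 and Top2a (r = 0.930, 0.928 and 0.927), and for Mmp3 they were Igtp, Irgm1 and Igfbp7 (0.986, 0.982 and 0.982). Mmp19 was closest to Slc39a1, Pcna and Mvp (0.986, 0.979 and 0.979) and Adamts1 to Bmp1, Flna and Slc39a14 (0.962, 0.948 and 0.947). Mmp2 was closest to Pld4, Tcn2 and Vasp (0.964, 0.956 and 0.947), Mmp14 to Ppp1r18, Ifitm1 and Lacc1 (0.974, 0.972 and 0.964), and Adamts9 to Wbp1l, Bnip2 and P4ha3 (0.895, 0.880 and 0.875). The genes nearest to Mmp9 were Ercc3, S100a8 and S100a9 (0.873, 0.851 and 0.846), of which S100a8 and S100a9 encode the calprotectin of neutrophils. Adamts4 was nearest to Lsm14a, Myo6 and Ccdc163 (0.858, 0.843 and 0.843) and Timp2 to Nap1l5, Pnma3 and Gnas (0.894, 0.888 and 0.877).

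The other genes of the system were read from lists in the averaged MCAO contrast. These lists were chosen with earlier results of these data known, so their counts beside the share of all genes are a description and no test. Of 6 other protease inhibitors 1 rose, where 2.52% of all genes did. This was Timp1, the TIMP that is induced by injury. It held 1.58, 0.326 and 0.362 RPKM in Cort+/+ CL and 4.26, 8.55 and 1.64 RPKM in Cort+/+ MCAO hemispheres. Timp1 in Cort-/- mice held 0.751, 2.37 and 0.661 RPKM in CL and 11.0, 6.14, 3.11, 17.7 and 5.88 RPKM in MCAO hemispheres. MCAO libraries were all above the CL libraries of their own genotype. The log2 difference was 2.61 ± 0.50 averaged (SE, limma adjusted p = 0.0116), 2.54 in Cort+/+ mice (adjusted p = 0.324) and 2.68 in Cort-/- mice (adjusted p = 0.0641). Timp3 (26.0 ± 1.58 RPKM in CL and 26.5 ± 1.38 RPKM in MCAO, SD, n = 6 and 8) and Timp4 (5.13 ± 1.02 and 5.25 ± 0.669 RPKM) had averaged log2 differences of 0.03 and 0.06 (limma adjusted p = 0.817 and 0.881). Of the 4 TIMPs, Timp1 thus passed the test and Timp2, Timp3 and Timp4 did not.

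Of 12 activators and partners 3 rose in the averaged contrast, where 2.52% of all genes did, and in Cort-/- mice, where 1.34% did. None passed in Cort+/+ mice, where 0.0108% of all genes passed. With 3 Cort+/+ and 5 Cort-/- MCAO libraries, these counts do not test a difference between genotypes. Plau encodes urokinase, which turns plasminogen into plasmin, and went from 0.900 ± 0.0758 RPKM in CL to 2.55 ± 0.587 RPKM in MCAO hemispheres (SD, n = 6 and 8). Its averaged log2 difference was 1.35 ± 0.14 (SE, limma adjusted p = 0.000854). The urokinase receptor Plaur rose by 1.54 (limma adjusted p = 0.00563) and Cd44, a hyaluronan receptor that docks metalloproteinases, by 1.75 (limma adjusted p = 0.00143). Plau was 1.24 higher in Cort+/+ mice (limma adjusted p = 0.0855). Over the 14 fits without 1 library, Plaur was 1.05 to 1.63 higher there and called in 0. Cd44 was 1.41 to 1.93 higher in Cort+/+ mice and called in 1 of these fits. The Cort-/- call held in 14 of 14 fits without 1 library for Plau and in 12 for Cd44, lost without Cort-/- CL replicate 1 or 3. For Plaur it held in 9 and was lost without any 1 of Cort-/- CL replicates 1, 2 and 3 and Cort-/- MCAO replicates 1 and 5. None of the 13 other MMPs that could be tested passed (limma, 3.43% of all genes), with 2 higher at an unadjusted p of 0.05 (8.02% of all genes). Among 21 other ADAMTS and ADAMTS-like genes 2 rose, against 2.52% of all genes. They were Adamtsl4 by 0.49 and Adamtsl3 by 0.47, both encoding matrix proteins without a protease domain (limma adjusted p = 0.0127 and 0.0383). Of 9 ADAM sheddases Adam8 rose by 1.33 and Adam17, the TNF convertase, by 0.34 (limma adjusted p = 0.0119 and 0.0225), against 2.52% of all genes. The Adam17 call was lost under 6 of 23 alternatives.

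Of 10 proteoglycan and perineuronal net genes Tnc rose and Hapln4 fell, where 3.43% of all genes passed in either direction. Tnc, which encodes tenascin C, rose by 1.53 (limma adjusted p = 0.00145), from 0.697 ± 0.123 to 2.41 ± 0.797 RPKM. Hapln4, a link protein of perineuronal nets, fell by 0.16 on the log2 scale (limma adjusted p = 0.0400), from 34.5 ± 0.890 to 31.0 ± 1.57 RPKM. This call was lost under 11 of 23 alternatives, 9 of them without 1 library. Of 18 basement membrane and junction genes 5 rose, where 2.52% of all genes did, and none fell. They were Fn1, which encodes fibronectin, by 0.63, Nid1 by 0.48, Cldn5 by 0.43, Ocln by 0.34 and Lamb2 by 0.23 (limma adjusted p = 0.00702, 0.0448, 0.0488, 0.04997 and 0.0295). Fn1 was the 1 gene of this list called in Cort-/- mice, where 1.72% of all genes were called. That call held in 8 of 14 fits without 1 library. It was lost without any 1 of Cort-/- CL replicates 1, 2 and 3 and Cort-/- MCAO replicates 1, 4 and 5. None was called in Cort+/+ mice, where 0.0108% of all genes were. Fn1 lay 0.34 to 0.63 higher in MCAO in Cort+/+ mice over the fits without 1 library. Over both genotypes Lamb2 lost its call under 9 of 23 alternatives, Cldn5 under 14, Nid1 under 15 and Ocln under 16. Median averaged log2 differences were 0.44 for the inhibitors, 0.27 for the activators, 0.13 for the other MMPs, 0.04 for the other ADAMTS genes, 0.05 for the sheddases, 0.02 for the net genes and 0.21 for the basement membrane and junction genes.

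**Figure D4:**
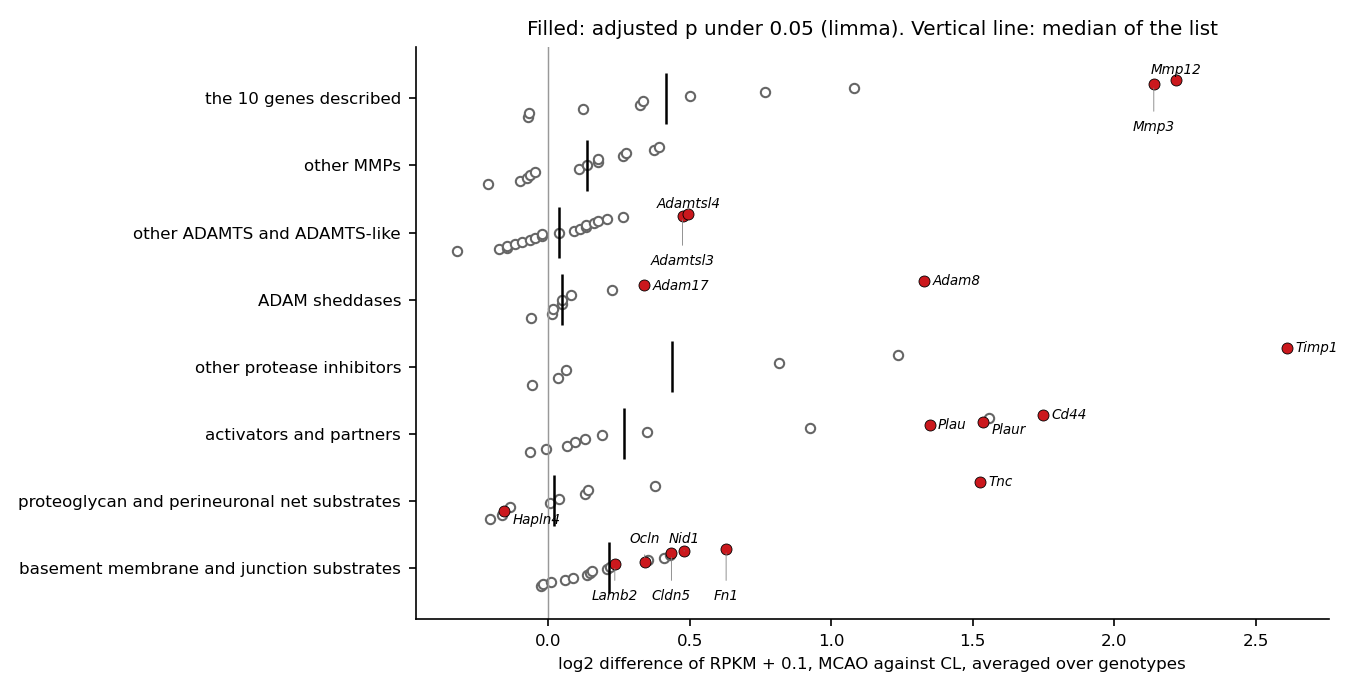
Log2 difference of RPKM + 0.1 between MCAO and CL hemispheres, averaged over genotypes (x axis), for each tested gene (points) of the 10 genes described and 7 related lists (y axis), with the list median as a vertical line. Filled and named points passed an adjusted p of 0.05 (limma), among which Timp1, Mmp12 and Mmp3 lie furthest to the right and Hapln4 is the only one below 0.

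Markers of cells that can carry these proteases were read beside them, in the averaged contrast. There 3.43% of all genes passed in either direction and 2.52% passed as higher in MCAO, the shares to set beside each count below. Of 9 macrophage and monocyte markers, Plac8 (log2 difference 1.82) and Lyz2 (1.45) passed in the averaged contrast. Their summed level was 5.50 to 16.6 RPKM in Cort+/+ CL, 12.6 to 30.9 in Cort+/+ MCAO, 7.13 to 14.4 in Cort-/- CL and 18.8 to 61.0 RPKM in Cort-/- MCAO hemispheres. The microglia markers Gpr34 (log2 difference 0.80), Tmem119 (0.68) and Cx3cr1 (0.66) also passed. None of 10 neutrophil markers passed or reached an unadjusted p of 0.05. Their sum was 2.47 to 4.46 RPKM in Cort+/+ CL, 2.45 to 5.37 in Cort+/+ MCAO, 4.68 to 9.80 in Cort-/- CL and 3.89 to 15.8 RPKM in Cort-/- MCAO hemispheres, and Ly6g and Elane had at most 3 reads in every library. Of 6 astrocyte markers Gfap (1.84) and Aqp4 (0.58) passed, and the other 4 had log2 differences of -0.17 (Slc1a2), -0.09 (Slc1a3), -0.06 (Aldoc) and 0.02 (Gja1). Of 7 pericyte and smooth muscle markers Tagln (1.32) passed, and the other 6 lay between -0.27 (Myh11) and 0.22 (Kcnj8), with Acta2 at -0.14 and Rgs5 at -0.02. Of 6 fibroblast and meningeal markers Dcn (0.53) passed and the others lay between 0.25 and 0.81. Of 6 endothelial markers Cdh5 (0.40) passed and the others lay between 0.03 and 0.31. What part these cells have in the values of Mmp12, Mmp3 or Timp1 was not tested.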

How the data were processed

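Bulk polyA RNA-seq libraries from 14 mouse brain hemispheres were read. The authors ran alignment and counting against GRCm39 and GENCODE genes within the reanalyzerGSE pipeline (the aligner is not given in the sources used here) and deposited RPKM values (reads divided by gene length and by library size) for each library without pooling. Whole reads were recovered from the RPKM steps, with 100% of 495656 values above 0 whole within 0.01 reads, and no column of values was left out. Recovered totals of 25991115 to 43034549 reads per library set the precision. The library size within the RPKM was not this plain total. It was 0.954 to 0.995 times the recovered reads in CL and 0.992 to 1.041 times in MCAO libraries, so the scaling differed slightly by hemisphere. Positions come from GENCODE M39, where 46792 of 46904 names matched.

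Genes above 0 in at least 2 libraries (46102) were tested on log2(RPKM + 0.1) with limma 3.58.1 (R 4.3.3), one model of the 4 groups with trend, two-sided, with Benjamini-Hochberg adjustment over all genes tested and a threshold of 0.05. The averaged contrast is the mean of the differences in both genotypes. Exact intervals of read ratios (95%) and the level of 3 reads used as a floor cover counting error only. Figures and summaries used Python 3.11.15 with numpy 2.4.6, pandas 2.3.3, scipy 1.17.1 and matplotlib 3.10.9, and the fit was tested on simulated data. The methods call the replicates independent biological ones, while the labels tie none to an animal.

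The 10 genes, the other lists and the cell markers were chosen with earlier results of these data known. All 10 genes are named, and of the other lists the TIMPs and every gene past the threshold, up to 8 a list, and the 3 genes most like each of the 10. Alternatives were a pseudocount of 1, no filter, a mean of at least 0.5 RPKM, quantile and median-ratio scaling, only the groups compared, a replicate block, library weights, voom on the recovered reads and each library left out. Leaving out both CL libraries of high Gfap, and read ratios and mean levels without 1 library, were chosen after seeing the data. One cell marker and one overlapping gene are not reported here, nor are the summed level and count of the marker list concerned.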

Additional observations from a re-analysis of the deposited data

How the results depend on the processing

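None of the 10 genes was called between genotypes or in the interaction under any alternative. In the averaged MCAO contrast, where 2 of 10 were called, 4 were called with library weights and 4 with a mean of at least 0.5 RPKM (a filter that drops Mmp3 and Mmp12), 5 with voom on the recovered reads, 1 with a pseudocount of 1 and 0 with a replicate block. Over all genes the count in that contrast rose from 1579 to 1857 with weights, 2180 with the mean filter and 2145 with voom. It fell to 1437 with a pseudocount of 1 and to 0 with the block. Without 1 library 1 to 6 of the 10 genes were called. There were 6 without Cort-/- MCAO replicate 3 (Mmp2, Mmp14, Mmp19 and Adamts1 added). There were 3 without Cort+/+ MCAO replicate 4 (Mmp2 added, limma adjusted p = 0.0303) and 1 without replicate 3 of Cort+/+ CL. For Cort+/+ mice 1 was called without any 1 library, and 0 with a mean of at least 0.5 RPKM, with only the groups compared or with the block. In Cort-/- mice the count was 1 to 3 without 1 library, 1 with a pseudocount of 1, with only the groups compared or without both CL libraries of high Gfap, and 0 with the mean filter or the block. The block rests on replicate numbers, which the labels do not tie to an animal. Deviations of same-numbered hemispheres correlated at -0.0645, -0.239 and 0.0271 in Cort-/- and 0.316 and -0.141 in Cort+/+ mice. So few values, from hemispheres in different states, cannot show whether same-numbered samples came from one animal.

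Counts over all genes moved more. In Cort+/+ mice 5 became 9 with weights, 28 with the mean filter, 25 with only the groups compared, 2 with a pseudocount of 1, 13 with quantile scaling, 57 with voom, 42 without both CL libraries of high Gfap, 0 with the block and 3 to 160 without 1 library. In Cort-/- mice 792 became 1290 with the mean filter, 86 with only the groups compared, 1294 with voom, 280 without both CL libraries, 0 with the block and 133 to 1191 without 1 library. The averaged count of 1579 became 0 with the block and 941 to 1913 without 1 library. Between genotypes in CL hemispheres 7 became 4 with the mean filter, 90 with only the groups compared, 2 with the block, 15 with voom, 43 without both CL libraries and 7 to 27 without 1 library. In MCAO hemispheres 8 became 4 with the mean filter, 15 with only the groups compared, 0 with the block and 7 to 40 without 1 library. The interaction went from 1 to 0 with the mean filter, voom or the block, 18 without both CL libraries and 1 to 16 without 1 library. The causes were not tested. No called gene value changed direction. Timp1, Plau, Plaur, Cd44, Tnc and Fn1 kept the averaged call under every alternative but the block, whereas Adam8 and Adamtsl4 lost it under 2 alternatives each, Adam17 under 6, Lamb2 under 9, Hapln4 under 11, Adamtsl3 under 13, Cldn5 under 14, Nid1 under 15 and Ocln under 16.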

Other observations

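The neighbours of Mmp3 and Mmp12 on chromosome 9 were read from the same table. Mmp10, Mmp27 and Mmp1a had 0 reads in all 6 CL libraries, and 8, 17 and 2 reads in total over the 8 MCAO libraries. Mmp13, a collagenase, had 3 reads in total in CL and 31 in MCAO hemispheres, with at most 10 in one library. Mmp8, the collagenase of neutrophils, held 0.0238 to 0.120 RPKM in CL and 0.0229 to 0.247 RPKM in MCAO hemispheres. Mmp1a did not reach the filter for testing, and none of the other 4 passed in any contrast. The membrane-type genes Mmp17 (30.7 ± 3.60 RPKM in CL, SD, n = 6, and 28.5 ± 2.19 RPKM in MCAO, SD, n = 8), Mmp24 (11.2 ± 0.944 and 10.6 ± 0.789 RPKM) and Mmp16 (5.84 ± 0.589 and 5.57 ± 0.565 RPKM) had higher mean levels than any of the 6 metalloproteinases described, and their CL and MCAO ranges overlapped. The same held for membrane-type Mmp15 (5.04 ± 0.741 and 5.43 ± 0.573 RPKM).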
